A study of Mus musculus with 225 samples.

Results

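The cells described here are those of the mouse forelimb that fall outside a chondrogenic class, compared between the autopod (future digits) and the zeugopod (future forearm). They were chosen by measured values: a retained cell was taken when fewer than 3 of 5 cartilage genes (Sox9, Col2a1, Acan, Col9a1 and Matn1) had at least 5 reads. Of the 199 retained cells, this gave 41 of the autopod and 85 of the zeugopod, and the remaining 73 cells (35 autopod, 38 zeugopod) form the chondrogenic class. The study captured 225 single cells on a Fluidigm C1 chip, a device that lyses each cell in its own chamber, and copied their polyadenylated RNA with the SMARTer kit. The forelimbs were dissected at embryonic day 12.5 from pooled embryos heterozygous for Hoxd11::GFP on a mixed C57Bl6CBAF1 background. In this knock-in, which autopod and zeugopod cells both carry, tau-GFP is joined to the coding sequence of Hoxd11, so 1 allele of Hoxd11 reports on itself and is not intact. Only the brightest GFP cells were sorted, so both tissues are selected for the GFP protein, which need not go with Hoxd11 mRNA at the time of capture. At least 5 reads of Hoxd11 were found in 40 of 41 autopod and 69 of 85 zeugopod cells.

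Since no label ties a cell to an embryo, a tissue counts as 1 pooled sample, within which cells are not replicates. No p-value is given, an SD is the spread over cells, and differences between the tissues have no replicate check. The closest to a repeat is given by the sequencing runs. Run NXT0143 held both tissues (9 autopod and 46 zeugopod cells), whereas NXT0072 held only autopod cells (32) and NXT0142 only zeugopod cells (39). These are 2 run comparisons with no cell in common, but in the second the tissue and the run cannot be told apart. Levels are the authors' spike-in and length normalized values on a log2(value + 1) scale, and differences are the autopod mean minus the zeugopod mean on that scale. A cell with 0 reads of a gene sits at a floor above 0 that depends on gene length. A gene was counted as present in a cell at 5 reads.

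In the limb bud, the mesenchyme under the ectoderm gives rise to cartilage, tendon, dermis and connective tissue, and the first sign of cartilage is Sox9, the transcription factor that switches on Col2a1 and the other cartilage matrix genes. Msx1 and Msx2 are homeobox genes of distal and interdigital mesenchyme that respond to bone morphogenetic proteins (BMPs), and Hoxd13 and Hoxa13 are the homeobox genes that mark the autopod. Shox2 is a homeobox gene of the proximal and middle limb, and Meox2 is a homeobox gene of mesenchyme with a role in limb muscle.

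The name non-chondrogenic described these cells only in part. Of the 41 autopod cells, 2 had none of the 5 cartilage genes, 15 had 1 and 24 had 2, and 30 autopod cells lay just outside the rule with 3. Of the 85 zeugopod cells, 5 had none, 42 had 1 and 38 had 2, and 26 lay just outside with 3. All 9 autopod cells of run NXT0143 had exactly 2. The genes behind these counts differed between the tissues, which is a description only, since the rule used them. Sox9 was present in 37 autopod cells (90.2%) and 41 zeugopod cells (48.2%), and Col9a1 in 16 autopod and 2 zeugopod cells. Col2a1 had the opposite distribution, with 9 autopod cells (22%) and 74 zeugopod cells (87.1%). Within the same cell, 28 of the 41 autopod cells had Sox9 without Col2a1 and 9 had both genes. Among the 85 zeugopod cells, 39 had Col2a1 without Sox9, 35 had both, 6 had Sox9 alone and 5 had neither. The autopod side of the comparison was therefore mostly cells with Sox9, and the zeugopod side mostly cells with Col2a1 reads.

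**Figure D1:**
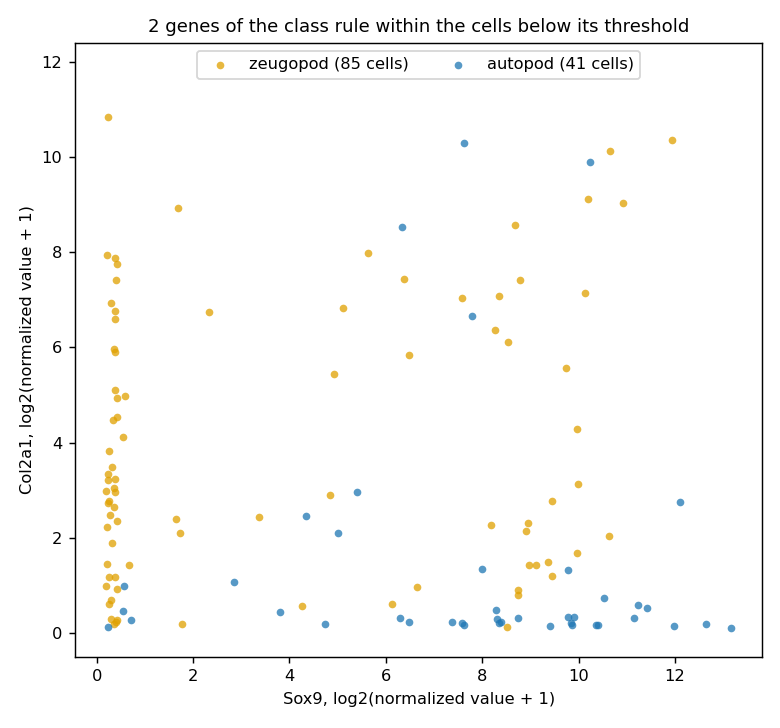
Levels of Sox9 (x axis) and Col2a1 (y axis), both as log2(normalized value + 1), in the 41 autopod (blue) and 85 zeugopod (yellow) cells outside the chondrogenic class, 1 point per cell with a small random offset. Most autopod points run along the bottom, with Sox9 and little Col2a1, whereas a column of zeugopod points at the left has Col2a1 and no Sox9.

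Much of the Col2a1 in zeugopod cells was low. Its median was 12.97 CPM there (counts of a gene per 1000000 reads on genes), with a highest value of 4986 CPM, and after every cell was thinned to 500000 reads it remained present in 58.5% of zeugopod and 10.5% of autopod cells. A measure of low counts in the wrong cell came from the sex-linked genes, since the pool held cells of both sexes. Of the cells of both tissues, 26 had at least 100 CPM of Xist, the RNA of the inactive X chromosome of female cells. In these 26 cells the 4 Y-linked genes Ddx3y, Eif2s3y, Uty and Kdm5d summed to 0 to 45.4 CPM (median 3.31), and 16 of the 26 had at least 5 such reads. In the other 100 cells the median was 30.3 CPM and the highest value was 3286 CPM. Above 45.4 CPM, Col2a1 was found in 37.6% of zeugopod and 12.2% of autopod cells, and Sox9 in 40% of zeugopod and 75.6% of autopod cells. At this level too Col2a1 had the larger share in the zeugopod and Sox9 in the autopod. The part that low counts from other cells, or from a second cell in a chamber, play in the rule was not tested.

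Depth was similar in both tissues. The cells had 187344 to 9437447 reads on genes in the autopod (median 2548468) and 234351 to 6801278 in the zeugopod (median 3137267), with a median of 3890 and 4051 genes detected, or 3130.5 and 3173 after thinning. The number by which the authors' spike-in scaling multiplied a cell's reads had a median of 1.64 in autopod and 0.882 in zeugopod cells, and each tissue had 2 cells multiplied by more than 5. CPM values, which do not use the spike-ins, are therefore given beside results of single runs that they change. Lists of markers for muscle, epithelium, endothelium, macrophages, Schwann cells and neurons found no cell in either tissue, where 3 cells would make 7.32% of the autopod and 3.53% of the zeugopod cells. The blood list could not be used, as 1 of its 4 genes was in the table. The tendon list (2 of Scx, Tnmd and Tnc) found 14 zeugopod cells, 8 in NXT0142 and 6 in NXT0143, and no autopod cell. The summed tendon markers had a median of 0 and a highest value of 37.7 CPM in the autopod, against 1.81 and 2410 CPM in the zeugopod. Prrx1, Prrx2, Twist1, Twist2 and Pdgfra, markers of limb mesenchyme, passed with at least 3 in 23 autopod cells (56.1%) and 25 zeugopod cells (29.4%). Within NXT0143 these were 2 of 9 (22.2%) and 9 of 46 (19.6%). The summed level of the 5 genes had a median of 817.6 CPM in the autopod and 947 CPM in the zeugopod over all cells. Within NXT0143 the medians were farther apart, with 71.2 CPM in the 9 autopod cells and 921.9 CPM in the 46 zeugopod cells.

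Each of the 4 marker genes was found mostly in cells of 1 tissue but not in all of them. Neither Msx gene was present in 8 of 41 autopod cells, and neither Shox2 nor Meox2 in 11 of 85 zeugopod cells. Msx1 (chromosome 5, 37820485 to 37824583, minus strand, GRCm38) was present in 32 of 41 autopod cells (78.05%, 95% Clopper-Pearson interval 62.4 to 89.4) and in 1 of 85 zeugopod cells (1.18%, 0.0298 to 6.38). Its normalized value in autopod cells ranged from the floor of 0.323 to 14667 with a median of 425, and the zeugopod maximum was 51.3. Autopod cells without Msx1 lay at or near the floor among the zeugopod cells, and the cells with it lay above nearly every zeugopod cell. The mean log2 level was 6.96 ± 4.30 (SD over 41 cells) in the autopod and 0.47 ± 0.58 (85 cells) in the zeugopod, a difference of 6.50 that was 5.99 within NXT0143 and 6.58 between the other runs.

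Msx2 (chromosome 13, 53466884 to 53473074, minus strand) was present in 23 autopod cells (56.1%, 39.7 to 71.5) and in 0 of 85 zeugopod cells, where 3 cells would make 3.53%. Its autopod values ran from the floor of 0.305 to 3646 with a median of 3.96, and every zeugopod cell was at the floor. The difference in mean log2 level was 3.92, with 4.30 within NXT0143 and 3.81 between the other runs. Both Msx genes were found together in 22 autopod cells, Msx1 alone in 10, Msx2 alone in 1 and neither in 8. Msx2 was thus nearly nested within the cells that had Msx1.

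Shox2 (chromosome 3, 66971727 to 66981771, minus strand) was present in 56 of 85 zeugopod cells (65.9%, 54.8 to 75.8) and in 0 of 41 autopod cells, where 3 cells would make 7.32%. Its zeugopod values ran from the floor of 0.316 to 4865 with a median of 35.1, and all 41 autopod cells were at the floor. The difference was −4.90, with −5.22 within NXT0143 and −4.53 between the other runs. Shox2 lies over Rsrc1 on the other strand, and since the library kit keeps no strand, reads from the shared stretch cannot be assigned to one gene.

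Meox2 (chromosome 12, 37108540 to 37179534, plus strand) was present in 59 zeugopod cells (69.4%, 58.5 to 78.95) and 4 autopod cells (9.76%, 2.72 to 23.1). Its zeugopod median was 117.6 and its highest value 6530, against the floor of 0.423 and 669 in the autopod. Thinning lowered the zeugopod share to 54.9%. The difference was −4.56, with −5.15 within NXT0143 and −4.30 between the other runs. Shox2 and Meox2 overlapped less completely than the Msx genes. Of the 85 zeugopod cells 41 had both, 15 had Shox2 alone, 18 had Meox2 alone and 11 had neither.

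Cells with markers of the other tissue were few. The 4 autopod cells with Meox2, all of run NXT0072, had 481, 147, 10 and 5 reads of it and 0, 0, 27508 and 1 reads of Msx1. Of these 4 cells 3 thus had neither Msx gene at 5 reads and would count with the zeugopod by the 4 markers alone. Each also had Hoxd13 (2305, 5114, 5497 and 3571 reads, in the same order as for Meox2) and no Shox2. In the zeugopod, 1 cell had 149 reads of Msx1 beside 288 of Shox2, and 2 cells had 6 and 8 reads of Hoxa13 beside 1248 and 2140 reads of Meox2. In each of these 4 autopod cells Hoxd13 had more reads than Meox2. Of the 4 distal genes Msx1, Msx2, Hoxd13 and Hoxa13, all 4 were present in 15 autopod cells, 3 in 12 and 2 in 10. A single autopod cell, of run NXT0143, had none of them and neither zeugopod marker.

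**Figure D2:**
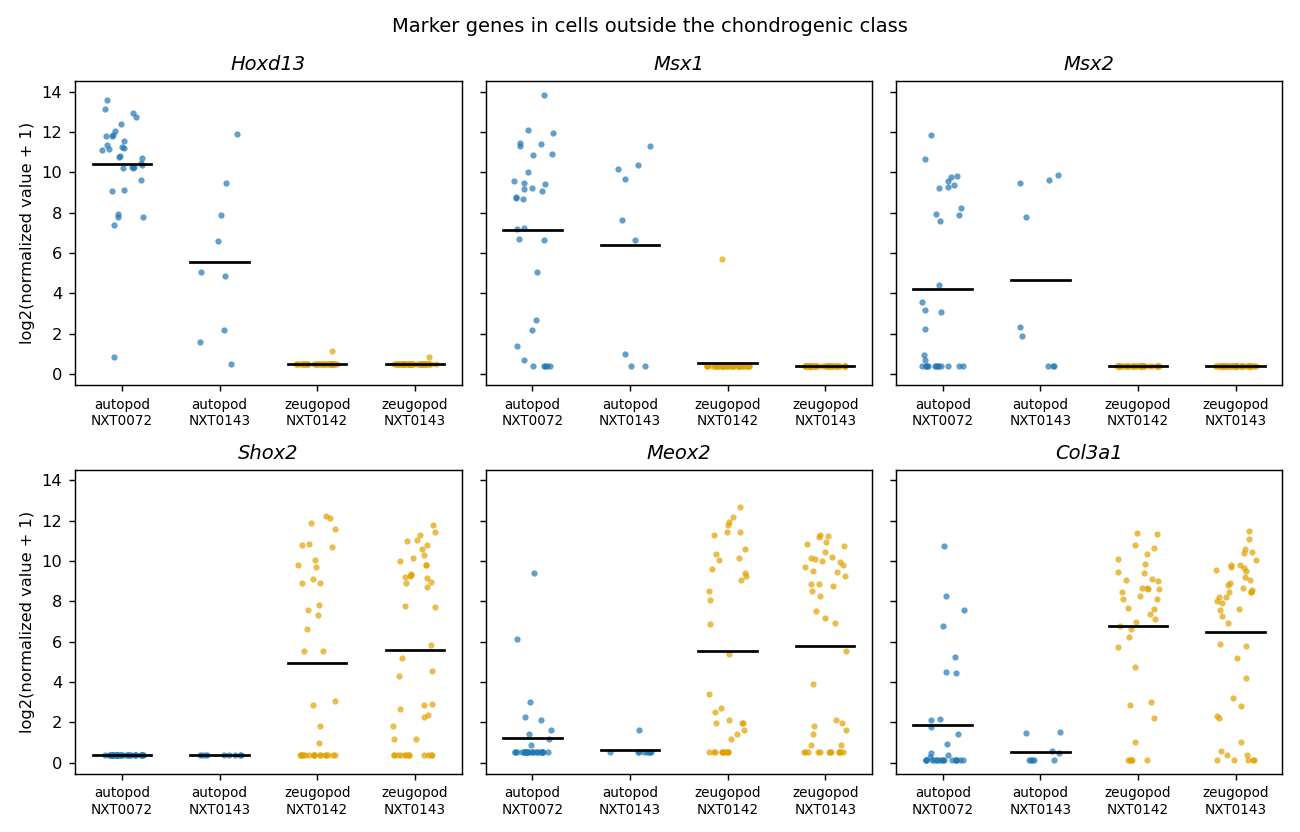
Level of 6 genes in each of the 41 autopod and 85 zeugopod cells (1 point per cell, horizontal jitter only) as log2(normalized value + 1), by tissue and sequencing run, with the mean of each group as a bar. Hoxd13, Msx1 and Msx2 rise above the floor almost only in the autopod groups and Shox2 and Meox2 almost only in the zeugopod groups, and Hoxd13 was lower in the 9 autopod cells of NXT0143 than in the 32 of NXT0072.

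Genes reaching 5 reads in 25% or more of the autopod or of the zeugopod cells were compared, which were 5144. A difference of 2 or more, that is 4-fold on the log2 scale, was found for 87 genes (1.69%) toward the autopod and 153 genes (2.97%) toward the zeugopod. These shares over all genes are the background for the gene lists described below. Within NXT0143 the shares were 9.49% (488 genes) and 2.24%, and between the other runs they were 2.02% and 6.9% (355 genes). The run comparisons had different centres, with a median difference over all genes of 0.35 within NXT0143 and −0.20 between the other runs (0.11 over all cells). On the CPM scale the median over all cells was −0.14 and the counts were 84 (1.63%) and 256 (4.98%), so that 24.7% of the genes beyond 2 lay on the autopod side, against 36.2% with the spike-in scaling. The same share was 80.9% within NXT0143 and 22.7% between the other runs. Cells of the same tissue also differed between runs. In the autopod, NXT0143 cells were 2 or more above NXT0072 cells in 452 genes (8.79%) and below in 244 (4.74%), and in the zeugopod NXT0143 was above NXT0142 in 5 genes (0.0972%) and below in 131 (2.55%). Few genes kept the size in both run comparisons, with 34 higher in the autopod (0.661%) and 53 higher in the zeugopod (1.03%), and 25 genes passed 2 in opposite directions (24 higher in the autopod only within NXT0143, 0.467%, and 1 the other way, 0.0194%). On the CPM scale 33 (0.642%) and 93 (1.81%) passed in both. Of 91 named genes 17 came to lie on another side of 2 on the CPM scale in at least 1 of the comparisons. Across genes the run comparisons had a Pearson correlation of 0.214 and a Spearman correlation of 0.148, over genes that are not independent and share the same libraries.

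**Figure D3:**
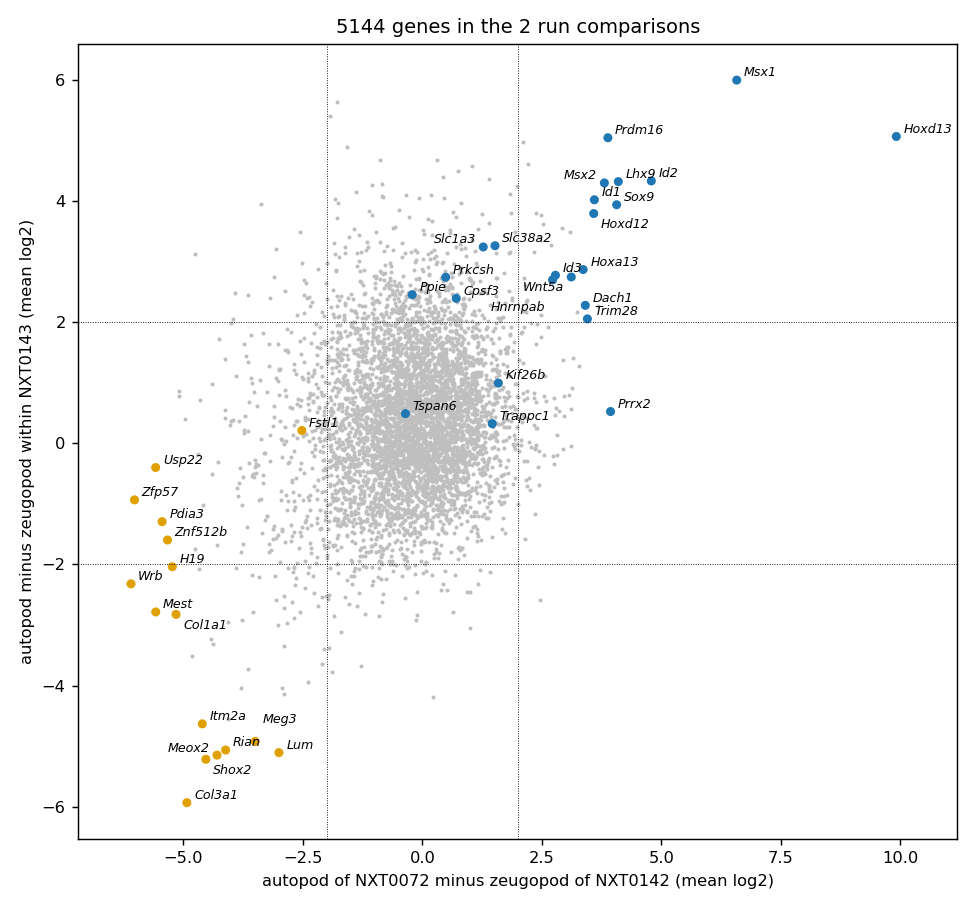
Autopod minus zeugopod difference in mean log2 level for 5144 genes, between run NXT0072 and run NXT0142 on the x axis and within run NXT0143 on the y axis, with named genes in blue (higher in the autopod) or yellow (higher in the zeugopod) and dotted lines at 2 and −2. Most genes form a cloud around 0 with little shared direction, and the named genes of the upper right (Hoxd13, Msx1, Id2) and lower left (Col3a1, Shox2, Meox2) corners stand apart in both comparisons. Many of the named genes were chosen for a large difference and the same direction in both comparisons, which by itself places them toward these corners.

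The Hoxd genes followed their order along the cluster, from Hoxd13 on the autopod side to Hoxd8 on the zeugopod side, and they did so in each run comparison. Hoxd13 (chromosome 2, 74668310 to 74671599) had the largest difference of all named genes, 8.86 (9.36 ± 3.36 over 41 autopod cells, 0.50 ± 0.08 over 85 zeugopod cells). It was present in 38 autopod cells (92.7%, 80.1 to 98.5) and in no zeugopod cell, where its highest level was 0.523 CPM. Its level differed between autopod runs, with a median normalized value of 1787 in NXT0072 and 32.2 in NXT0143, and the tissue difference was 9.92 between the other runs and 5.06 within NXT0143. Hoxd12 followed with 3.66 (58.5% and 2.35% of cells), Evx2, the homeobox gene beyond Hoxd13, with 1.98 and Hoxd11, the gene behind the GFP sort, with 1.35. Hoxd10 had −0.20, Hoxd9 −1.31 and Hoxd8 −3.39, the last present in 9.76% of autopod and 60% of zeugopod cells. In the other cluster Hoxa13 had 3.25 (26 autopod and 2 zeugopod cells), and Hoxa11, Hoxa10 and Hoxa9 had −1.52, −1.02 and −0.41. Of 17 genes listed 11 were compared. Of these, 3 were 2 or more higher in the autopod (background 1.69%), each also in both run comparisons (background 0.661%). Hoxd8 was 2 or more higher in the zeugopod (background 2.97%) but not within NXT0143 (−1.75), where it had −2.22 on the CPM scale. Hoxd8 lies over the antisense gene Hoxd3os1 and shares its reads. The median of the 11 genes was −0.20, beside 0.11 for all genes.

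Genes that respond to BMP signals were the most one-sided list. Id1, Id2 and Id3, which encode inhibitors of helix-loop-helix factors, and both Msx genes were 2 or more higher in the autopod over all cells and in both run comparisons, making 5 of 7 compared genes (background 1.69% over all cells and 0.661% in both runs), with none toward the zeugopod. The median of the list was 3.92, with 4.02 within NXT0143 and 3.60 between the other runs. Id2 was present in 39 of 41 autopod and 61 of 85 zeugopod cells, with median normalized values of 4750 and 422. Its difference was 4.56, with 4.33 and 4.79 in the run comparisons. Id1 had 4.13 (4.02 and 3.60) and Id3 2.60 (2.77 and 2.79), so all 3 Id genes were frequent in both tissues and higher in the autopod. Id4 had 1.06 and Smad7, the inhibitory Smad, 1.26. The list contains the markers Msx1 and Msx2, which were given for these cells with the data known. The list of receptors and Smads, which also holds Smad7, moved less. All 7 compared genes were above 0 (0.86 to 1.70, median 1.39) but none reached 2, and Smad4 and Smad5 were −0.09 and −0.96 within NXT0143. Of 7 ligands and antagonists, the pseudoreceptor gene Bambi had 2.32 but only 0.70 within NXT0143. Bmp4 had −0.75, Bmp7 0.86 and Bmp2 1.59, so the ligands had no common direction.

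Other regulators of limb pattern fell on both sides. Of 52 transcription factors listed 24 were compared, with 10 toward the autopod and 5 toward the zeugopod, and 8 and 2 in both run comparisons (median 0.97), where the background was 1.69%, 2.97%, 0.661% and 1.03%. Beside the Msx genes, the autopod side held the LIM homeobox genes Lhx9 (4.65, with 4.32 and 4.10 in the run comparisons) and Lhx2 (2.72), which act in distal outgrowth, the zinc finger genes Prdm16 (4.23) and Mecom (3.17), Dach1 (3.31), Mycn (2.71), Dlx5 (2.62) and Tfap2b (2.31). Lhx9 was present in 34 autopod cells (82.9%) and 20 zeugopod cells (23.5%). Dlx5 and Tfap2b were not 2 apart within NXT0143 (0.91 and 1.97), although Tfap2b had 2.20 there on the CPM scale. Prdm16 lies over 3 annotated genes on the other strand. The zeugopod side held Shox2 and Meox2, and with smaller differences Osr1 (−2.91), a factor of loose connective tissue, Tbx5 (−2.38), the forelimb T-box gene, and Zfhx4 (−2.03). Zfhx4 had −1.71 between the other runs, and −2.28 on the CPM scale. Osr1 and Tbx5 were −0.92 and −1.36 within NXT0143. Prrx2 (3.47) and Twist1 (3.15), mesenchymal transcription factors, also lay toward the autopod over all cells, but within NXT0143 they had 0.52 and 1.28.

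Several signalling pathways had members apart without moving as a whole. In the retinoic acid pathway, Aldh1a2, which makes retinoic acid in the interdigits, had 2.74 (4.61 within NXT0143, 2.22 between the other runs) and was present in 29.3% of autopod and 5.88% of zeugopod cells. The receptor gene Rarg had 3.13 (2.17 and 3.23), and Crabp1, which encodes a cytoplasmic carrier of retinoic acid, had −3.77 (−4.56 and −4.06). These were 2 genes and 1 gene of 6 compared (background 1.69% and 2.97%). All 3 were beyond 2 in both run comparisons (background 0.661% and 1.03%). In the WNT pathway, the distal ligand gene Wnt5a had 3.39 (2.74 and 3.12). Dkk2, which encodes an antagonist, and Rspo3, which encodes an enhancer of WNT signals, had −2.63 and −2.30. These were 1 and 2 of 16 genes (background 1.69% and 2.97%). Rspo3 had −1.96 within NXT0143, and −2.31 on the CPM scale. Wnt5a shares a stretch with the antisense gene Gm2670. Gli3, the transcription factor of the hedgehog pathway, had 2.42, with 3.64 and 1.39 in the run comparisons. It was the only 1 of 7 compared genes to pass 2 (background 1.69%). In the FGF pathway 8 genes were compared, of which 6 were above 0. Toward the autopod 1 passed 2 (background 1.69%), Fgfr2 with 2.00 (3.13 and 1.54 in the run comparisons). The FGF feedback genes Spry2 and Spry4 had −2.17 and −2.21 (2 of 8, background 2.97%). Neither reached −2 within NXT0143 (−0.35 and −0.95). In the Notch pathway the target gene Hes1 had 2.38 (2.73 and 2.13), the ligand gene Jag1 2.50 (0.57 and 3.12) and Dlk1 −2.80 (−2.58 and −3.06). The interdigital combination of 2 of Aldh1a2, Msx2 and Bmp7 was found in 11 of 41 autopod cells (26.8%) and in 0 of 85 zeugopod cells. This is a description only, since Msx2 is a given marker that no zeugopod cell had. In the chondrogenic class the combination was found in 6 of 35 autopod cells (17.1%) and 1 of 38 zeugopod cells.

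Matrix genes of connective tissue lay toward the zeugopod. Of 23 genes compared 21 were below 0, with a median of −1.56. Of the 23, 9 were 2 or more higher in the zeugopod (background 2.97%) and none in the autopod. Of these 9, 6 were so in both run comparisons (background 1.03%). Col3a1, the main collagen gene of loose connective tissue beside Col1a1 and Col1a2, had the largest zeugopod difference of all compared genes, −5.05 (−5.93 and −4.93). It was present in 72 of 85 zeugopod cells (84.7%, 75.3 to 91.6) with a median normalized value of 278 and a highest value of 2877, and in 13 of 41 autopod cells (31.7%, 18.1 to 48.1) with a median at the floor of 0.103. Col1a1 had −4.39 (−2.83 and −5.16), Col1a2 −2.76 (−3.00 and −3.02) and Col6a1 −2.43, with Col6a1 absent from all autopod cells at 5 reads. The small proteoglycan genes Lum, Dcn and Ogn, whose products bind collagen fibrils, reached 5 reads in zeugopod cells only. Lum (−4.14) and Dcn (−3.52) were each present in 34 zeugopod cells (40%, 29.5 to 51.2) and in no autopod cell, and Ogn (−2.72) in 35.3% and none. Lum and Dcn were in the same 28 cells, each alone in 6 and both absent in 45. All 34 cells with Lum had Col3a1, 31 had Shox2 and 27 had Meox2, and 12 had the tendon gene Scx. Sparc (−2.81) and Mfap2 (−2.34) also passed 2, but within NXT0143 Sparc was 0.21 and Mfap2 −1.62 (−2.17 on the CPM scale). Without the 14 zeugopod cells with at least 2 of Scx, Tnmd and Tnc, Col3a1 had −5.00, Col1a1 −4.26, Lum −3.89 and Dcn −3.36. Scx was present in 12 zeugopod cells with Lum and in 14 zeugopod cells without Lum, so some cells with Scx were kept. Leaving out every cell with a tendon marker was not tested.

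Growth genes under parental imprinting were also mostly higher in the zeugopod, with 12 of 15 compared below 0 and 3 above. Of the 15, 7 were 2 or more higher there (background 2.97%) and 5 of these in both run comparisons (background 1.03%), with none toward the autopod. The median of the list was −1.29, with −0.74 within NXT0143 and −2.27 between the other runs. Mest had −4.77 (−2.79 and −5.58), H19, the non-coding RNA beside Igf2, −4.01 (−2.04 and −5.23) and Igf2, the growth factor gene, −2.97 (−4.14 and −2.89). Igf2 was frequent in both tissues (90.2% of autopod and 100% of zeugopod cells), so this was a difference of level and not of presence. The neighbours Dlk1, Meg3 and Rian on chromosome 12 (109452823 to 109661716) had −2.80, −3.93 (−4.92 and −3.50) and −4.55 (−5.06 and −4.12). On the CPM scale Meg3 and Rian had −5.68 and −6.19. Meg3, a non-coding RNA of the maternal allele, was present in 81 zeugopod cells (95.3%) and 13 autopod cells (31.7%), with median normalized values of 49.9 and the floor of 0.0603. Dlk1 was present in 61.2% of zeugopod and 0% of autopod cells. Impact (−2.91) and Igf2r (−2.67) passed 2 over all cells but had −0.50 and −0.55 within NXT0143. Among genes for the IGF receptor and binding proteins 4 of 10 passed 2 toward the zeugopod (background 2.97%). Of these 4, 1 did so in both run comparisons (background 1.03%), Igfbp5 (−3.04), whereas Igf1 (−3.39) had −1.69 within NXT0143 (−2.48 on the CPM scale). Mest lies over Copg2 and Igf2 over Igf2os on the other strand.

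The chaperones and folding enzymes of the endoplasmic reticulum, which collagen-secreting cells use heavily, had 5 of 17 genes toward the zeugopod (Pdia3, Pdia4, Pdia6, Hspa5 and Ppib, −2.25 to −4.02, background 2.97%). The median of the list was −1.07, with −0.36 within NXT0143 and −1.34 between the other runs. None of the 5 reached −2 within NXT0143, where Hspa5 was 0.69 and Pdia3 −1.29. On the CPM scale Pdia3, Pdia4 and Pdia6 did pass within that run (−2.19, −2.51 and −2.21), whereas Hspa5 (0.27) and Ppib (−1.54) did not. With the spike-in scaling the same held for Znf512b, Zfp57 and Usp22, 3 of the genes with the largest zeugopod differences, which had −1.60, −0.94 and −0.40 within NXT0143 and −5.33, −6.03 and −5.58 between the other runs. Of these 3, Znf512b passed within NXT0143 on the CPM scale (−2.26), and of the run comparisons Zfp57 and Usp22 passed 2 only in the one in which run and tissue cannot be told apart. Itm2a, a membrane protein gene of early chondrocytes and muscle precursors, held in both (−4.97, with −4.63 and −4.61), and so did Pdgfra (−3.34, with −2.92 and −3.77), the receptor gene of mesenchymal progenitors, which had −4.70 on the CPM scale.

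Cell division genes were slightly shifted. Of 16 mitosis genes 15 were above 0 with a median of 1.02, none reached 2, and the median within NXT0143 was 0.37. Cells with 3 of Mki67, Top2a, Ccnb1 and Cdk1 made 14 of 41 in the autopod (34.1%, 20.1 to 50.6) and 16 of 85 in the zeugopod (18.8%, 11.16 to 28.8), and 34.2% and 17.1% after thinning. These intervals, which cover counting error only, overlap. Replication genes had a median of 0.58 with none beyond 2, and had opposite signs in the run comparisons (1.35 and −0.30). Immediate early genes, which respond quickly to growth factors and to stress, had 3 of 15 toward the autopod (Fos 2.60, Dusp1 2.45 and the heat shock gene Hspa1b 2.05, background 1.69%) and a median of 1.04 over all cells. Within NXT0143 the median was 2.49, where 9.49% of all genes were 2 or more higher in the autopod. Egr1 and Ier2 had 4.40 and 4.04 within NXT0143 and 0.44 and −0.07 between the other runs.

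**Figure D4:**
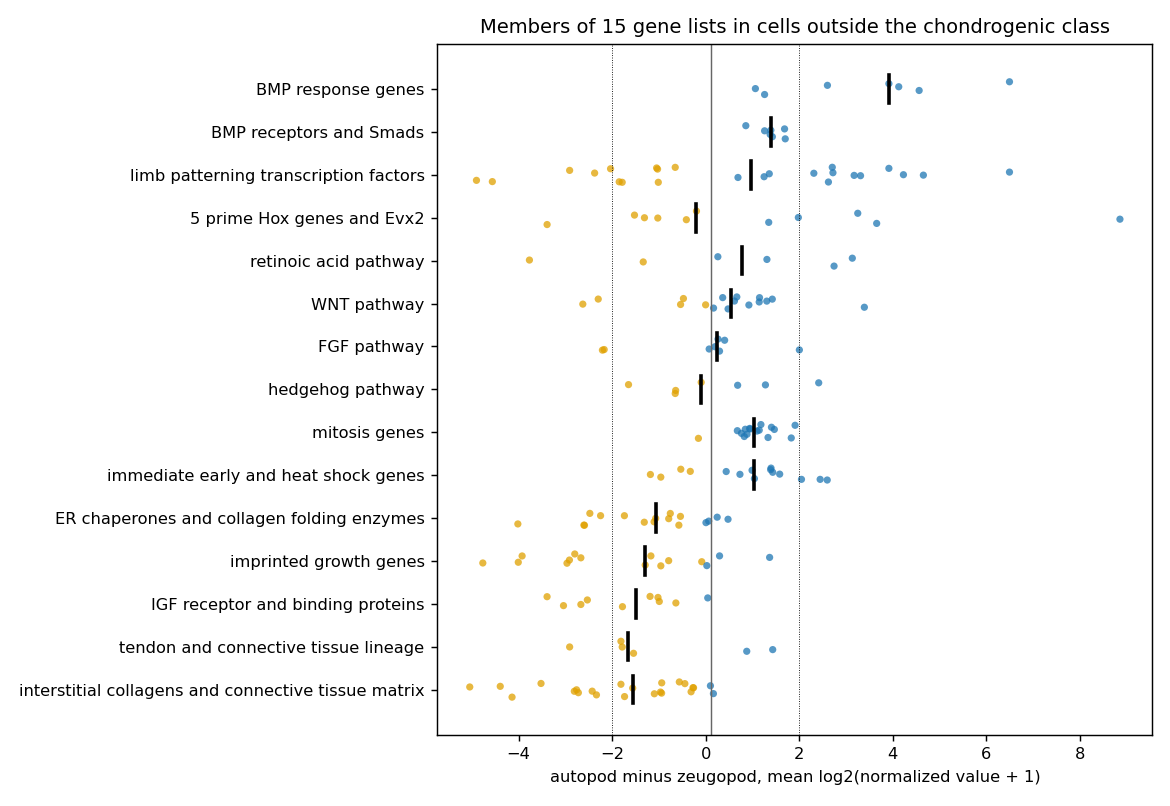
Autopod minus zeugopod difference in mean log2(normalized value + 1) over all cells outside the chondrogenic class for the compared members of 15 gene lists (1 point per gene, blue above 0 and yellow below), with the list median as a black bar, the median of all 5144 genes as a grey line and dotted lines at 2 and −2. All 7 BMP response genes lie to the right of 0, 21 of 23 matrix genes lie to the left, and the patterning transcription factors lie on both sides.

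The same contrast was made in the chondrogenic class and set beside that of the cells outside it. In that class 4647 genes were compared, of which 39 (0.839%) were 2 or more higher in the autopod and 235 (5.06%) in the zeugopod. Some tissue differences had nearly the same size in both classes. Id2 had 4.56 in the cells outside the class and 4.23 in chondrogenic cells, Id1 4.13 and 3.68, Itm2a −4.97 and −4.88, and Mest −4.77 and −4.84. Col1a1 had −4.39 and −3.95, and Pdia3 −4.02 and −4.89. List medians were −1.29 and −1.57 for imprinted genes and −1.07 and −1.45 for endoplasmic reticulum genes. These 2 shifts were thus not particular to the cells outside the class. The matrix list had −1.56 and −0.97, and the same 5144 genes had 0.11 and −0.26. Other tissue differences were smaller in chondrogenic cells. Msx1 had 6.50 and 3.11, Lhx9 4.65 and 1.31, and Meox2 −4.56 and −1.23, and the gap was about 2 for Hoxd13 (8.86 and 6.68), Msx2 (3.92 and 1.76) and Shox2 (−4.90 and −2.92). The genes whose zeugopod side exceeded that of chondrogenic cells by most were Col3a1 (−5.05 and −1.37), Meox2, Kctd12 (−3.72 and −0.42), Egfl6 (−3.64 and −0.33), Dcn (−3.52 and −0.22), Tpm1 (−3.00 and 0.94), Spint2 (−2.29 and 1.26) and 6330403K07Rik (−2.17 and 1.58). On the other side Tspan6, Ppie, Prkcsh, Cpsf3, Kif26b, Trappc1, Slc38a2 and Slc1a3 had 0.19 to 2.06 outside the class and −3.54 to −1.67 within it. Sox9 had 3.89 and 0.24, but it chose the classes. The median over all genes was 0.11 outside the class and −0.32 within it, and the difference between the classes was not tested, since both come from the same pair of pooled samples.

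**Figure D5:**
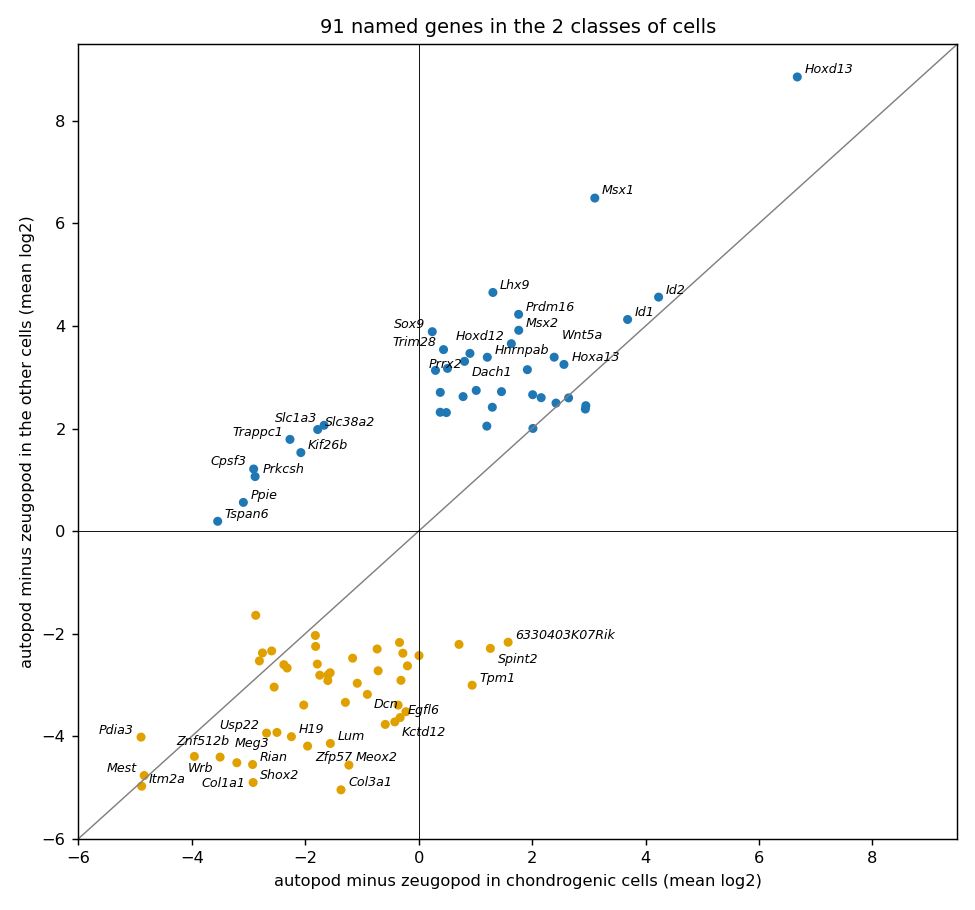
Autopod minus zeugopod difference in mean log2 level for 91 named genes, in chondrogenic cells (x axis) and in the cells outside that class (y axis), with a line of equal values. Most of the genes were named for a large value on the y axis, which by itself places them farther from 0 on that axis, and Id2, Id1, Itm2a and Mest lie close to the line whereas Col3a1, Meox2 and Lhx9 lie far from it.

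Cells mostly had neighbours of their own tissue, but for the autopod this rested on NXT0072, where run and tissue cannot be told apart. Among the 15 nearest neighbours of a cell in 10 principal components of the 1000 most variable genes, 81.6% came from the same tissue, where even mixing would give 55.7%. The share was 95.9% for zeugopod cells of NXT0142, 90% for those of NXT0143 and 68.3% for autopod cells of NXT0072 (32% by mixing). For the 9 autopod cells of NXT0143 it was 24.4%, below mixing, and 44.4% on the CPM scale. When only run NXT0143 was used, 80.2% of neighbours came from the same tissue, where mixing gives 72.1%, and the 9 autopod cells had 14.1% autopod neighbours, where mixing gives 14.8%. With 15 neighbours and 9 autopod cells in the run, the neighbours there could not all be autopod cells. With 5 neighbours over all runs the share for these 9 cells was 20%, where mixing gives 32%. Thus these 9 cells carried Hoxd13 (7 cells), Msx1 (7 cells) and no Shox2. With the spike-in scaling their neighbours were not more often autopod cells than by mixing, whereas on the CPM scale over all runs they were (44.4%).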

How the data were processed

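Single cells of 2 pooled tissues were grouped by the labels. According to the labels and the study's methods, the authors mapped reads with Bowtie2 to GRCm38 (mm10) and deposited raw read counts per gene for 225 cells, without normalization. The authors also deposited a signal table of 10948 genes in the 199 cells kept by their quality filter. In it counts were scaled by spike-ins, with size factors centred per batch, and divided by gene length, with a floor for 0 reads. The study's methods do not say what a batch was. No column was left unused (0). The kit keeps no strand, so overlapping genes share reads, and reads without molecular identifiers make intervals cover counting error only. Doublets were not called.

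The members, gene lists and markers were chosen with earlier results of these data known. Genes reaching 5 reads in 25% or more of the cells of a tissue were compared as differences of mean log2(value + 1), with CPM (pseudocount 1) and thinning to 500000 reads (seed 42) as alternatives. A limit of 100 CPM for Xist was chosen after seeing the data. No test was possible with 1 sample per tissue. Named genes were the markers, genes the study marks between the tissues, the 15 largest differences per direction with the same direction in both run comparisons, list members 2 apart or needed to describe a list, and the 8 per direction that differ most from chondrogenic cells. Positions are GENCODE's for GRCm38. Calculations (Python 3.11.15, pandas 2.3.3, scipy 1.17.1) were tested on simulated data.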

Additional observations from a re-analysis of the deposited data

How the results depend on the processing

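No paired analysis was possible because cells share only a number across tissues and each tissue is 1 pooled sample. For the named genes other than Msx1, Msx2, Shox2 and Meox2 (87), 1024 of 1044 values under alternatives had the sign of the reported value. Of the others, 17 had the opposite sign and 3 were 0 (Col6a1, Fgfr2 and Hoxd12 in the 7 cells with no cartilage gene). Most of these genes were named for a large difference, and some for the same direction in both run comparisons, which are among the alternatives. Their signs were therefore partly fixed by the choice. Across all 5144 genes the run comparisons had a Pearson correlation of 0.214. The number of genes 2 or more higher in the autopod was 197 with a pseudocount of 0.1, 18 with 10, 488 within NXT0143, 330 for the 17 autopod and 47 zeugopod cells with fewer than 2 cartilage genes, 704 for the 2 and 5 cells with none, and 149 when 1 read counted as present (29 and 70 cells). Toward the zeugopod it was 256 on the CPM scale, 244 and 45 with pseudocounts of 0.1 and 10, 355 between the other runs, 254 after thinning, and 273 and 1284 with fewer than 2 and with no cartilage gene, where the median of all genes was −0.70. The larger counts under the stricter class rules come with fewer cells. Differences of Msx1, Msx2, Shox2 and Meox2 were 7.76, 4.86, −5.96 and −5.28 with a pseudocount of 0.1, 4.35, 2.44, −3.17 and −3.15 with 10, and 8.0, 2.99, −5.82 and −6.05 with no cartilage gene, and Shox2 and Meox2 were −5.61 and −5.20 with fewer than 2. Meox2 was −5.15 within NXT0143. The share of cells with Msx1 in the zeugopod and with Meox2 in the autopod was 0 within NXT0143, and Meox2 was in 29.3% of autopod cells at 1 read and in 54.9% of zeugopod cells after thinning. Of the genes 2 or more apart, signs changed within NXT0143 for Efna5 (0.71), Sparc (0.21), Igf1r (0.20) and Hspa5 (0.69), and in the 7 cells with no cartilage gene for Col3a1 (0.91), Impact (1.41), Spry2 (0.79), 6330403K07Rik (2.94), Aldh1a2 (−0.78) and Twist1 (−0.42). The other 7 changes were in Fstl1 (0.21 within NXT0143), Cpsf3 (−2.94 with no cartilage gene), Ppie and Tspan6. The cause was not tested. Leaving out the cells multiplied by more than 5 and centring on the median were added after seeing the data, and moved neither count by over 1.5 times and none of the 4 markers by over 0.58 on the log2 scale.

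The run NXT0143 comparison rests on 9 autopod cells, so shares there have wide intervals (39.99 to 97.2% for Msx1). With 1 pooled sample per tissue, a difference between the tissues cannot be told apart from a difference between these samples. A gene missing from a cell at this depth was not detected, which does not show that it was absent.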

Other observations

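In both run comparisons 53 genes passed 2 toward the zeugopod (1.03%) and 34 toward the autopod (0.661%). Some of these, outside the lists except for Ldha, were picked out here after their values were seen. Toward the zeugopod they included Tgfb2 (−3.30), a ligand of the transforming growth factor family, and Tgfbr3 (−3.70), its co-receptor gene, together with Runx1t1 (−3.79), Mab21l2 (−3.75), Gas2 (−3.21), Ebf2 (−2.44), Ednra (−2.28), the endothelin receptor gene, and Ptn (−2.02). Myl9 (−3.08) and Cnn2 (−2.73), genes of the contractile cytoskeleton, lay on the same side. Toward the autopod they included Prickle1 (3.07) and Llgl1 (2.86), genes of cell polarity, Lgr4 (2.84), a receptor gene for R-spondins, Cdh3 (2.87), a cadherin gene, Creb5 (2.50) and Lmo4 (2.42). Ldha (1.97 over all cells, 2.18 and 2.10 in the run comparisons) was also among them. It was the only gene of 11 in the glycolysis list beyond 2 in both (background 0.661%).

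In all, 27 of the 41 autopod and 85 zeugopod cells had at least 5 reads both of Xist and of the Y-linked genes. Xist was present in 17 of 41 autopod and 22 of 85 zeugopod cells, with 2 of 9 and 6 of 46 in NXT0143 and 15 of 32 and 16 of 39 in the other runs.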
